A study of Mus musculus with 54 samples.

Results

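The circadian clock genes described here were Arntl (also called Bmal1), Clock, Npas2, Cry1, Cry2, Per1, Per2, Per3, Nr1d1 and Dbp. Every probe set annotated to 1 of these 10 genes alone was taken, which gave 23 of the 34945 probe sets that were annotated to a single gene, on arrays of 45101 probe sets. Arntl had 2 of them, Clock 4, Npas2 2, Per2 3, Per3 6 and Dbp 2, and Cry1, Cry2, Per1 and Nr1d1 had 1 each. For a gene with several probe sets, the brightest one over all arrays is meant unless another is named. The arrays compared WT mice of the FVB/N strain with the lines PrPmtA and PrPmtB, which carry a mutant human transgene under the prion promoter on the same FVB/N background. The study calls this promoter neuron-specific. It is active broadly in brain neurons, so the transgene is not limited to 1 region. RNA came from striatum, cerebellum and tissue labelled brainstem, which the design of the study calls brainstem and midbrain, and it was hybridized to 54 Affymetrix mouse genome arrays in 18 groups.

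The young mice were 6 months old, and each line and region had 2 young arrays, 1 labelled female and 1 labelled male. The old mice were 20 to 28 months old. Old striatum had 4 WT, 2 PrPmtA and 2 PrPmtB arrays, old brainstem had 6, 4 and 3, and old cerebellum had 6, 5 and 4 in the same order. The codes in the array names fall into 3 series, and each array carries the code of 1 of them. The first series holds all 18 young arrays. The second holds 18 old arrays, all labelled female, at 22 months for WT and PrPmtB and at 21 months for PrPmtA. The third holds the other 18 old arrays, labelled female at 28 months, male at 26 months and mixed for sex at 20 months, with WT at all these ages, PrPmtA at 26 and 28 months and PrPmtB at 20 months. Age and array series therefore cannot be told apart between young and old, but the second and the third series can be compared within old age. These 2 series share no month of age, so series and age in months cannot be told apart there, and their sexes differ as well. The mice lived in 1 room under a light/dark cycle, and the hour of dissection is not given in the labels.

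In the circadian clock of mammals, CLOCK or its relative NPAS2 pairs with ARNTL and switches on genes that carry E-box sequences. Among these genes are Per1, Per2, Per3, Cry1 and Cry2, whose proteins come back to inhibit the activating pair, and so the loop takes about a day. NR1D1 (REV-ERB alpha), another target, represses Arntl through response elements that it shares with the activating ROR receptors. DBP is an output factor that binds D-box sequences. As a result Arntl transcripts peak at about the opposite time of day from those of Nr1d1, Dbp and the Per genes in most tissues, and Npas2 takes the place of Clock in parts of the forebrain. Genes of opposite phase are for this reason read together where tissue may have been taken at different hours.

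Sequences of the kind through which these genes act on each other were searched for around their start sites. RefSeq promoter windows of build GRCm38.p6, 250 bases before to 50 bases after the start of a gene, were searched on both strands in 32851 windows of 27025 genes. The motifs were the E-box (CACGTG), its variant called the E'-box (CACGTT), the D-box (TTATGTAA or TTATGCAA) and the ROR/REV-ERB response element, an AT-rich stretch before a nuclear receptor site. An E-box was present in 7.15% of all windows, an E'-box in 4.68%, a D-box in 1.66% and a response element in 0.773%. The windows of the 4 members below are shown because they hold an E-box, a D-box or a response element, with these motifs in capitals. They lie at chr11:69098699-69098998 (+ strand, Per1), chr10:85185005-85185304 (- strand, Cry1), chr4:151044616-151044915 (- strand, Per3) and chr7:113207261-113207560 (+ strand, Arntl), and each reads 5′ to 3′ in the direction of its gene.
Per1: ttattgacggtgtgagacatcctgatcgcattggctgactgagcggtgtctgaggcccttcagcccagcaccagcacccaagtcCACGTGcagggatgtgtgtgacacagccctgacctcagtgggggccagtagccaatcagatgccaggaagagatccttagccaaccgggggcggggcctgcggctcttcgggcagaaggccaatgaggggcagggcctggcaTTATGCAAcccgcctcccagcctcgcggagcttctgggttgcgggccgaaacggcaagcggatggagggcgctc
Cry1: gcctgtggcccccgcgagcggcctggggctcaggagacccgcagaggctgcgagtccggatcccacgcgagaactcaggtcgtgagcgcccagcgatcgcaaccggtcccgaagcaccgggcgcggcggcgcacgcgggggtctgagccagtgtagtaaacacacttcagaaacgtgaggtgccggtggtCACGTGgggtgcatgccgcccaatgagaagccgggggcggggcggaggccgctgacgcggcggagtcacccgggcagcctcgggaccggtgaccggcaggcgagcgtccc
Per3: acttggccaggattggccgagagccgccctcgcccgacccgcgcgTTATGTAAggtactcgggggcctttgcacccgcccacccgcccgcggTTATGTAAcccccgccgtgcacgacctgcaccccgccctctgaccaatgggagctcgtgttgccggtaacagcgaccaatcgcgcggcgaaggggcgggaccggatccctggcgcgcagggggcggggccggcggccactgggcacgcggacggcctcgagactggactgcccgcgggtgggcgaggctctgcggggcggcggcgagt
Arntl: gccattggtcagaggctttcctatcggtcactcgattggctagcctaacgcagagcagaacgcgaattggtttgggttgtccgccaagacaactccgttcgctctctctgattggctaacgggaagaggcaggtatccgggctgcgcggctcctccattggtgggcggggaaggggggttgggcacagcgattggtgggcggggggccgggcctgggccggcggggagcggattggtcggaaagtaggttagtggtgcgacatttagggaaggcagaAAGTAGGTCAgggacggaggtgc

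The E-box began at base -166 of Per1 and -60 of Cry1, counted from the start site. Per1 also had a D-box at -24, and Per3 had D-boxes at -205 and -158. The response element of Arntl, AAGTAGGTCA, began at +28. An E'-box was found in the windows of Cry1, Cry2 and Nr1d1, no motif was found in those of Clock, Npas2 and Dbp, and Per2 had no window in the table. These are matches of letters in short windows.

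The signals of the clock genes differed most between regions, and Npas2 differed the most of all. Npas2 had a log2 signal of 8.53 to 9.69 in striatum (median 9.26, 14 arrays), of 3.83 to 6.88 in brainstem (median 4.70, 19 arrays) and of 3.41 to 4.01 in cerebellum (median 3.66, 21 arrays). All striatal arrays lay above all others. The difference to striatum was -4.09 in brainstem (SE 0.26, limma adjusted p = 2.03e-16) and -5.55 in cerebellum, on the log2 scale, averaged over lines and ages. The dimmer probe set of Npas2 gave -2.59 and -2.63. Region differences were called for 25 of the 30 pairs of gene and regions at a false discovery rate of 5%, beside 57.1% of all such tests over the arrays. In such bulk tissue, fewer cells of a type and less RNA per cell cannot be told apart.

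**Figure D1:**
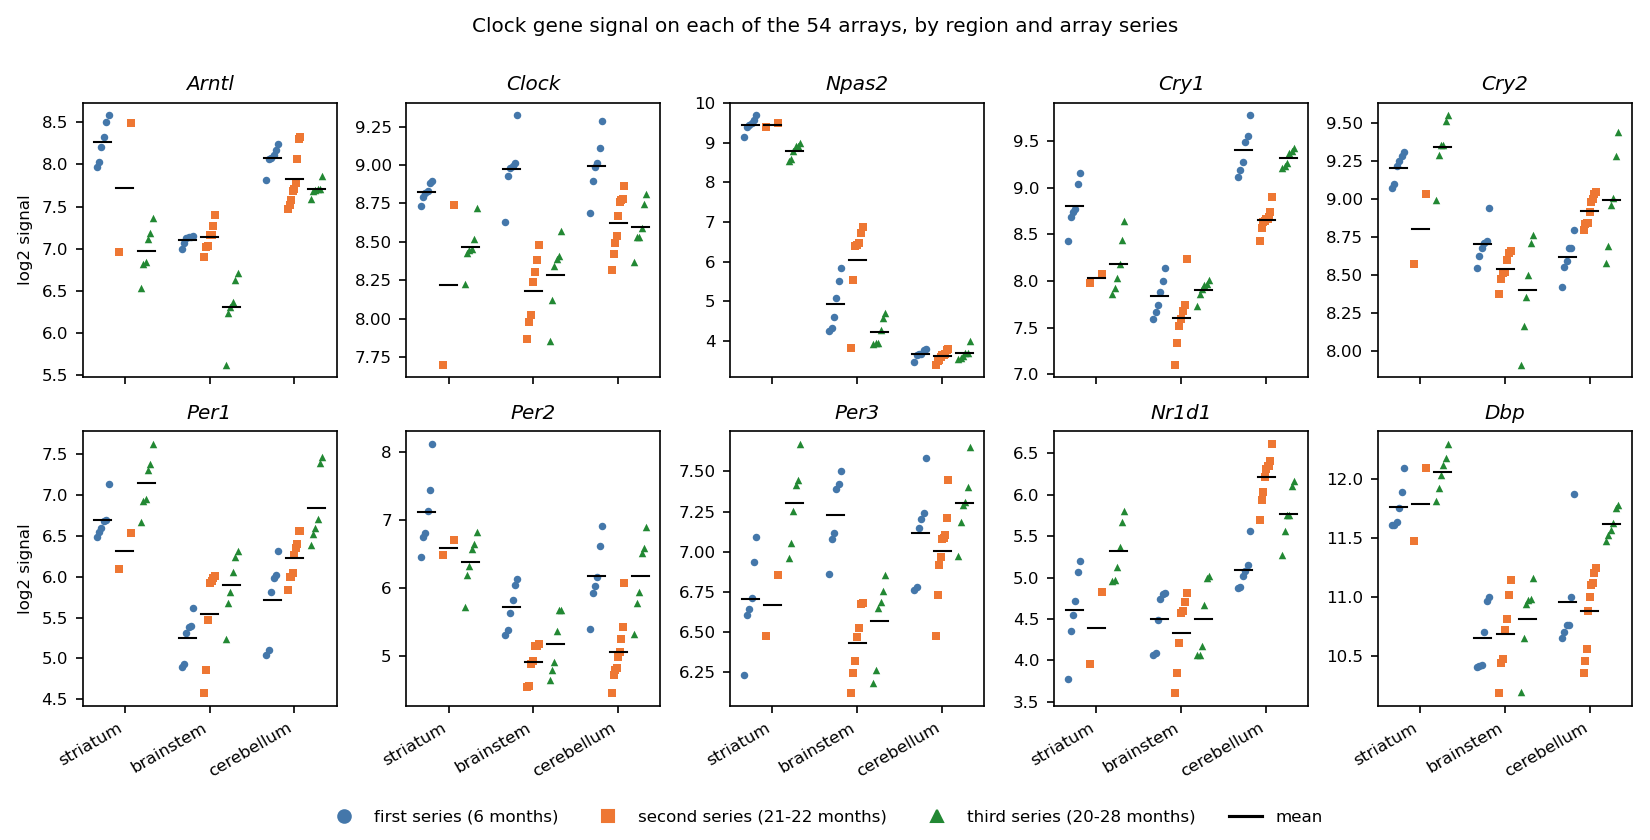
Log2 signal of each of the 10 clock genes (brightest probe set) on all 54 arrays, by region and array series, where each point is an array and each bar the mean of its series. Npas2 lies between 8.53 and 9.69 in striatum and no higher than 6.88 elsewhere, whereas the arrays of the 3 regions overlap for Per3.

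Among the other activators, Arntl was lower in brainstem than in striatum by 0.74 (SE 0.15) and higher in cerebellum than in brainstem by 0.98 (SE 0.14). The cerebellar arrays of Arntl (7.47 to 8.33) all lay above those of brainstem (5.62 to 7.39). The second probe set of Arntl is dim (mean log2 signal 2.07) and was not called in either comparison, at -0.076 and 0.11. Clock, which codes for the usual partner of ARNTL, varied little by this probe set. It was 0.22 higher in cerebellum than in striatum and 0.20 higher than in brainstem, and both of these small calls were lost in some of the other settings.

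Of the repressors, Cry1 was highest in cerebellum (8.42 to 9.78), where all arrays lay above those of brainstem (7.10 to 8.24), with a difference of 1.36 (SE 0.11). Cry2 was highest in striatum, by 0.61 over brainstem (SE 0.08) and 0.44 over cerebellum (SE 0.08). Per1 and Per2 had the same order of regions, with striatum first and brainstem last. Per1 was 1.34 lower in brainstem than in striatum (SE 0.17) and Per2 was 1.41 lower (SE 0.20), while cerebellum lay 0.58 and 0.44 above brainstem. Cerebellum was 0.97 below striatum for Per2. The second brightest probe set of Per2, which is dim (mean log2 signal 2.85), gave no call in any of these comparisons, with -0.094 for brainstem against striatum, 0.030 for cerebellum against striatum and 0.12 for cerebellum against brainstem. Per3 was called in none of the 3 comparisons, with differences from -0.04 to 0.24.

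The output gene Dbp had the brightest probe set of the 23 and was highest in striatum. It read 11.48 to 12.30 in striatum, 10.35 to 11.88 in cerebellum and 10.18 to 11.16 in brainstem, so that striatum and brainstem did not overlap. The brainstem level was 1.17 below that of striatum (SE 0.13). Nr1d1, the repressor of Arntl, was highest in cerebellum, by 0.70 over striatum (SE 0.15) and 1.11 over brainstem (SE 0.14).

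With age, Clock was the gene called most often, lower in 8 of the 9 combinations of line and region. In brainstem the 6 young arrays had log2 signals of 8.63 to 9.32 (median 8.99) and the 13 old arrays of 7.86 to 8.57 (median 8.30). The old arrays of both series lay below all young arrays. The difference was -0.88 in WT (SE 0.17, limma adjusted p = 0.000223), -0.62 in PrPmtA and -0.78 in PrPmtB. In striatum and cerebellum they ran from -0.21 to -0.70, and that of WT cerebellum was not called. Some of these calls hung on 1 array. That of WT striatum (-0.29) was lost when any of 4 of its 6 arrays was left out, and that of PrPmtA striatum (-0.47) without old replicate 2, at -0.36. PrPmtB striatum, at -0.70, was -0.33 and not called without its old array of the second series, and PrPmtA cerebellum, at -0.37, was -0.16 and not called without its young replicate 1. The probe sets of Clock did not move together, however. The dimmest (mean log2 signal 4.67) was called lower in 8 of 9 comparisons as well, by up to 1.40, but the probe sets with means of 8.28 and 7.81 were called in none, with differences of -0.47 to 0.49.

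Over all 10 genes, 20 of 90 age differences were called, beside 33.9% of all such tests. Of these, 16 were lower with age (beside 24.8%) and 4 were higher (beside 9.08%), and they came from 7 genes. The shares among the clock genes were thus below those over the whole arrays. Cry2, Npas2 and the brightest probe set of Dbp had no call, and 14 of the 90 had a limma adjusted p under 0.05.

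**Figure D2:**
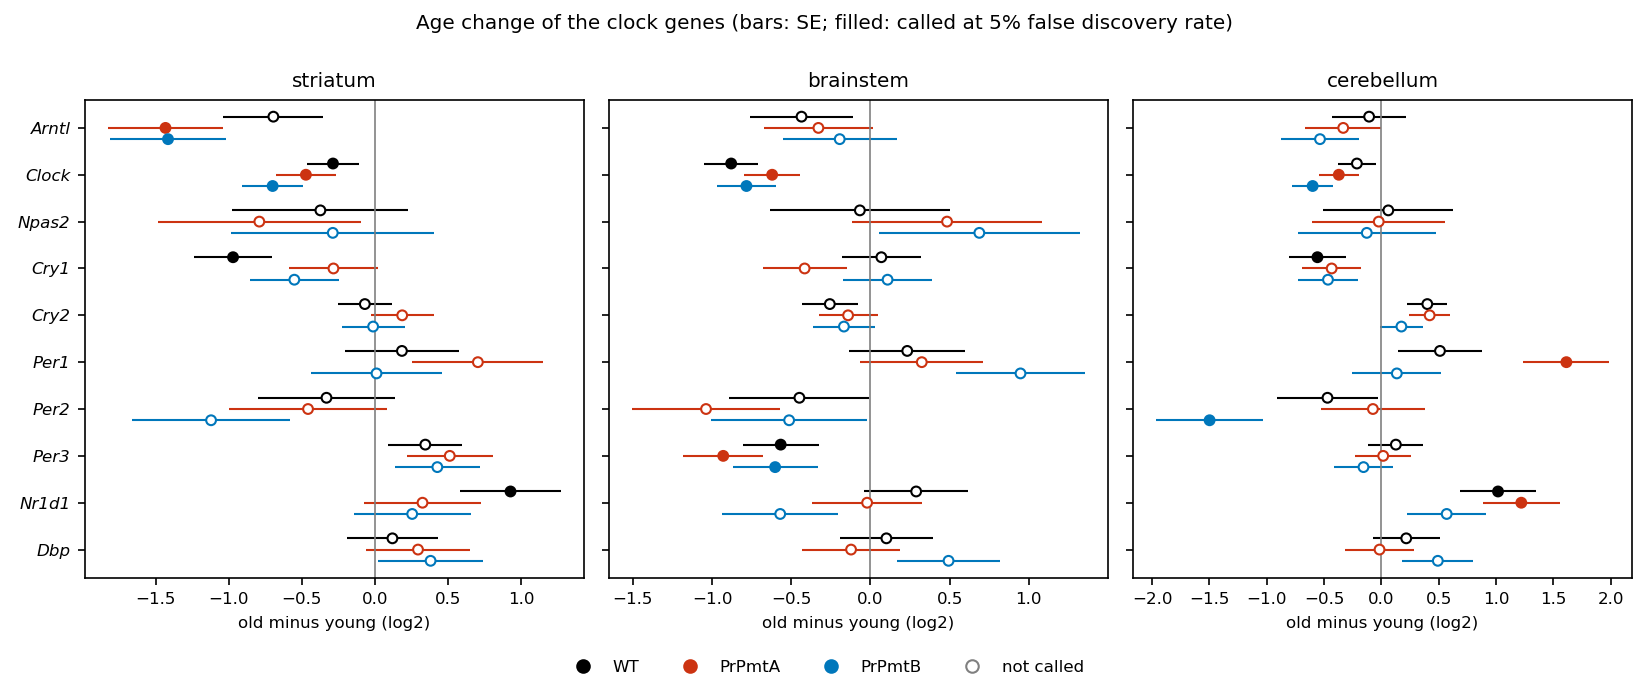
Difference between old and young arrays (log2) for each clock gene in each line and region, with the standard error as a bar and filled points for calls at a false discovery rate of 5%. Clock, Arntl and Per2 lie below 0 in all 9 comparisons and Per1 lies above 0 in all 9, and both Arntl calls are in striatum and all 3 Per3 calls in brainstem.

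Arntl was lower in old than in young striatum in both transgenic lines. The young arrays read 8.03 and 8.50 in PrPmtA, 8.32 and 8.58 in PrPmtB and 7.97 and 8.21 in WT. The old arrays read 6.82 and 6.84 in PrPmtA, 6.96 and 7.11 in PrPmtB, and 8.49, 7.36, 6.54 and 7.19 in WT. Old and young did not overlap in the transgenic lines, while 1 old WT array, the one of the second series, lay as high as the young arrays. Old minus young was -1.43 for PrPmtA, with SE 0.40 and a limma adjusted p of 0.0263. PrPmtB gave -1.42 (SE 0.40) with 0.00723, and WT gave -0.70 (SE 0.34) with 0.109 and no call. With a term for the third series they were -0.62 and -1.01 in the transgenic lines and were no longer called. The difference between a line and WT in this age change was not called. The dim second probe set of Arntl gave -0.042 and -0.12 in these lines, without a call. Means of several marker lists varied with Arntl in striatum, those of glia among them. Of the astrocyte markers, Gfap and Aldh1l1 were called higher with age in all 9 comparisons, Aqp4 and Slc1a3 in 2 each, and Gja1 lower in 7. The mean of the 5 astrocyte markers was 9.47 to 9.84 in young and 10.14 to 11.19 in old striatum, and its Pearson correlation with Arntl was -0.92 over the 14 arrays and -0.97 over the 8 old ones. Over the 14 arrays it was -0.85 for the oligodendrocyte and -0.79 for the microglia markers, and -0.78 and -0.45 over the 8 old ones. For the hypothalamic and endothelial markers it was -0.76 and -0.65 over the 14 arrays, and -0.66 and 0.24 over the 8 old ones. These are descriptions, since age and series are shared by the arrays, and the part of these markers in the result was not tested.

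Cry1 was lower in old WT striatum, where the young arrays read 9.15 and 8.74 and the old ones 7.86 to 8.08. The difference of -0.97 (SE 0.27, limma adjusted p = 0.00285) remained called in every setting run. In WT cerebellum it was -0.56, which fell to -0.25 and lost its call with old arrays of the third series only.

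Per3 was lower with age in brainstem in every line. The young arrays there read 6.86 to 7.50 (median 7.25) and the old ones 6.12 to 6.86 (median 6.53), with no overlap but almost no gap. The differences were -0.57 in WT, -0.93 in PrPmtA (SE 0.25, limma adjusted p = 0.00953) and -0.60 in PrPmtB. Those of WT and PrPmtB were called with adjusted p-values of 0.066 and 0.197 and lost the call when any of 4 arrays each was left out. The next 2 probe sets of Per3 in brightness were called lower in all 3 lines in brainstem too, by 0.93 to 2.23. In striatum and cerebellum the brightest probe set of Per3 had no age call.

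Nr1d1 was higher with age in the cerebellum of WT and PrPmtA. The young cerebellar arrays had log2 signals of 4.88 to 5.56 and the old ones of 5.27 to 6.61. The difference was 1.02 in WT (SE 0.33, limma adjusted p = 0.0105) and 1.22 in PrPmtA (SE 0.34, adjusted p = 0.0118). In WT striatum it was 0.93, and 0.27 without a call once the third series had a term. The WT call in cerebellum was lost without young replicate 1, at 0.94. Per1, an immediate responder to light and to glucocorticoids as well as a clock gene, was higher in old PrPmtA cerebellum, where the young arrays read 5.04 and 5.11 and the old ones 6.35 to 7.40. This difference was 1.61 (SE 0.37, limma adjusted p = 0.00299), and the other young cerebellar arrays read 5.81 to 6.32. Without young replicate 1 it was 1.58 and lost its call.

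Per2 differed by -1.50 in PrPmtB cerebellum (SE 0.47, limma adjusted p = 0.042). The young arrays read 6.93 and 6.62 and the old ones 4.99, 5.43, 4.72 and 5.94, of which the last was of the third series. With old arrays of the third series only, the difference was -0.83 and not called, and the call was also lost without either young array or old replicate 3. Dbp was called with age only by its second probe set, which was higher in the cerebellum of WT, PrPmtA and PrPmtB by 0.62, 0.80 and 0.88 and in PrPmtA brainstem by 0.72. The brightest probe set of Dbp gave 0.22, -0.02 and 0.49 in cerebellum, without a call. Its name carries the suffix by which the maker marks probes shared between transcripts.

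No clock gene was called between a transgenic line and WT. Averaged over regions and ages, 0 of 20 differences were called by limma, beside 0.25% of all such tests, and 5 had an unadjusted p under 0.05. The lowest adjusted p was 0.162, for Nr1d1 in PrPmtA (0.44 higher, SE 0.14). Dbp was 0.34 higher in PrPmtA, with an adjusted p of 0.208. Within single regions and ages 0 of 120 were called (beside 0.224%), with 6 at an unadjusted p under 0.05. The difference of the age changes between a line and WT was called in 0 of 60 tests (beside 1.23%), with 1 at an unadjusted p under 0.05. That was Per1 in PrPmtA cerebellum, at 1.10 (SE 0.52, limma adjusted p = 0.348).

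Old arrays of the third series differed from those of the second in several clock genes. Age in months and sex also differ between these series. Within line and region, 11 of 30 differences between the series were called, 7 higher and 4 lower in the third, beside 12.5% of all such tests, 6.91% higher and 5.59% lower. By region the share over all probe sets was 7.51% in striatum, 15% in brainstem and 15% in cerebellum. Arntl was lower in the third series in striatum and brainstem, while Per1, Per2, Cry1 and Dbp were higher in the third series in cerebellum. In each region 7 of the 9 other genes had the opposite sign to Arntl. These 9 include the activators Clock, positive in 2 of 3 regions, and Npas2, positive in 1. The median difference over all probe sets was 0.00013 in striatum, 0.014 in brainstem and 0.024 in cerebellum.

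**Figure D3:**
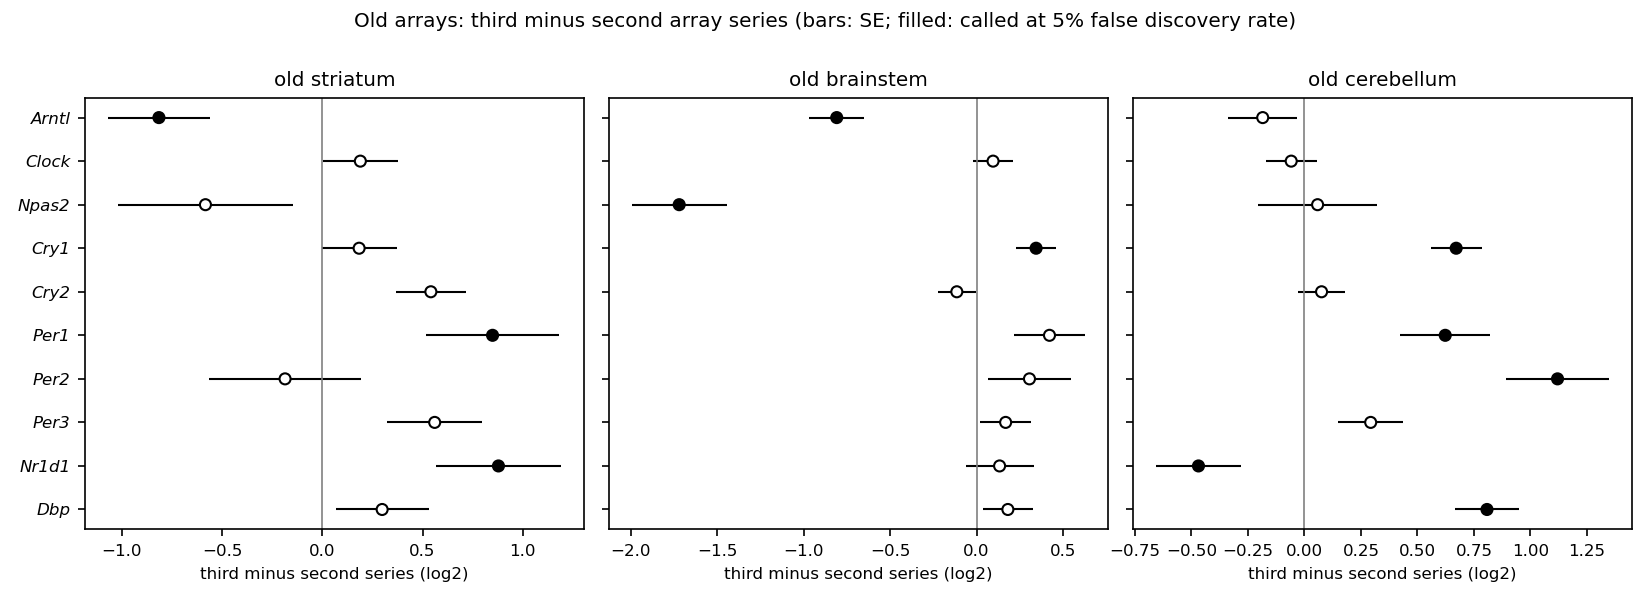
Difference of the third from the second array series among old arrays (log2, adjusted for line within region) for each clock gene, with standard errors as bars and filled points for calls at a false discovery rate of 5%. Arntl is negative in all 3 regions and Per1, Cry1, Per3 and Dbp are positive in all 3, and Npas2 in brainstem is the largest difference shown.

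In brainstem, Arntl read 6.90 to 7.39 in the 7 arrays of the second series (median 7.16) and 5.62 to 6.71 in the 6 of the third (median 6.33). The series did not overlap, and the young arrays (median 7.13) lay within the range of the second. The difference was -0.81 (SE 0.16, limma adjusted p = 0.000498). Cry1 was higher in the third series there by 0.34, and this call was lost without PrPmtA old replicate 1. In striatum the difference of Arntl was also -0.82 (SE 0.26, adjusted p = 0.0722), but it rested on the 1 WT array of the second series at 8.49. Without that array it was 0.15, and 8 rather than 11 differences were called over all regions.

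In cerebellum, Dbp read 10.35 to 11.25 in the 9 arrays of the second series and 11.47 to 11.78 in the 6 of the third (median 11.60). Cry1 read 8.42 to 8.90 in the second (median 8.66) and 9.21 to 9.43 in the third (median 9.32). For both genes all arrays of the third series lay above all of the second. The differences were 0.81 for Dbp (SE 0.14, limma adjusted p = 8.86e-05) and 0.67 for Cry1 (SE 0.11, adjusted p = 6.41e-05). Per2 was 1.12 higher in the third series (SE 0.23, adjusted p = 0.000712) and Per1 0.62 higher (SE 0.20, adjusted p = 0.0298). Per2 gave 0.085 and no call by its dim second probe set, and Per1 lost its call with sex as a covariate, at 0.58, where the second series is all labelled female. Nr1d1 differed in the direction opposite to Dbp, with -0.47 (limma adjusted p = 0.0959), a call lost when any of 10 arrays was left out. Arntl itself was only 0.18 lower in the third series and was not called.

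In striatum, 2 arrays of the second series stood against 6 of the third. Per1 read 6.10 and 6.54 in the second and 6.68 to 7.63 in the third, and Nr1d1 read 3.96 and 4.82 against 4.95 to 5.80. Neither gene overlapped between the series, nor did Npas2 and Per3. The share of all probe sets that separate in this way between 2 and 6 arrays was not counted. The calls for Per1 and Nr1d1 had limma adjusted p-values of 0.19 and 0.134, and without WT old replicate 1 both were lost, Nr1d1 falling from 0.88 to 0.13. The mean of the cortical markers moved with these arrays. It was 3.96 and 4.88 in the second series, 6.46 to 8.82 in the third and 5.83 to 8.48 in the first. The cortical neuron gene Neurod6 was at 2.56 and 2.93 in the second series, against 5.01 to 9.13 in the other striatal arrays. The part of these markers in the result was not tested.

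Npas2 in brainstem showed the largest difference between the series, -1.72 (SE 0.27, limma adjusted p = 3.41e-05). In the second series it read 6.41 and 5.54 in PrPmtA, 6.88 and 6.48 in PrPmtB, and 3.83, 6.72 and 6.43 in WT. In the third it read 3.96 and 3.93 in PrPmtA, 4.59 in PrPmtB and 4.70, 4.27 and 3.95 in WT. In the second series 6 of 7 arrays thus lay above all of the third, and the remaining WT array lay below them all. The young arrays read 4.26 to 5.84. The dim second probe sets were not called between the series in brainstem, with -0.078 for Npas2 and -0.072 for Arntl.

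Markers of neighbouring tissue moved with Npas2 across these arrays. Pmch, the precursor of a peptide made in the lateral hypothalamus, was at 12.63 to 13.07 in the 6 arrays of the second series with high Npas2 and at 4.59 in the remaining WT array. In the third series it was at 8.21 to 11.56. Hcrt, the orexin precursor of the same area, was at 8.38 to 9.56 in those 6 arrays and at 3.11 in the remaining one. The mean of the 6 hypothalamic markers had a median of 6.30 in the second series and of 5.32 in the third. Slc6a5, the glycine transporter of hindbrain neurons, was at 2.41 to 5.65 in the second series, at 4.22 to 9.13 in the third and at 8.86 to 9.52 in the first. Gabra6, a receptor subunit of cerebellar granule cells, was at 2.44 to 4.28 in the second series, 6.18 to 9.46 in the third and 6.45 to 8.19 in the first. Over the 19 brainstem arrays Npas2 had a Pearson correlation of 0.66 with the hypothalamic mean, of -0.79 with that of the brainstem and midbrain markers and of -0.57 with that of the cerebellar markers, given as descriptions, since the arrays share their series. Single genes of the lists were not correlated with Npas2, and those of the brainstem and midbrain list did not move together with age. Over the 9 age comparisons Hoxb5 ran from -3.09 to -0.055 and Slc6a5 from -5.98 to 1.21. Th ran from 0.26 to 1.87 and Slc6a3 from -0.11 to 1.45. The part of these markers in the differences of Npas2 and Arntl between the series, and in the age differences in brainstem, was not tested.

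**Figure D4:**
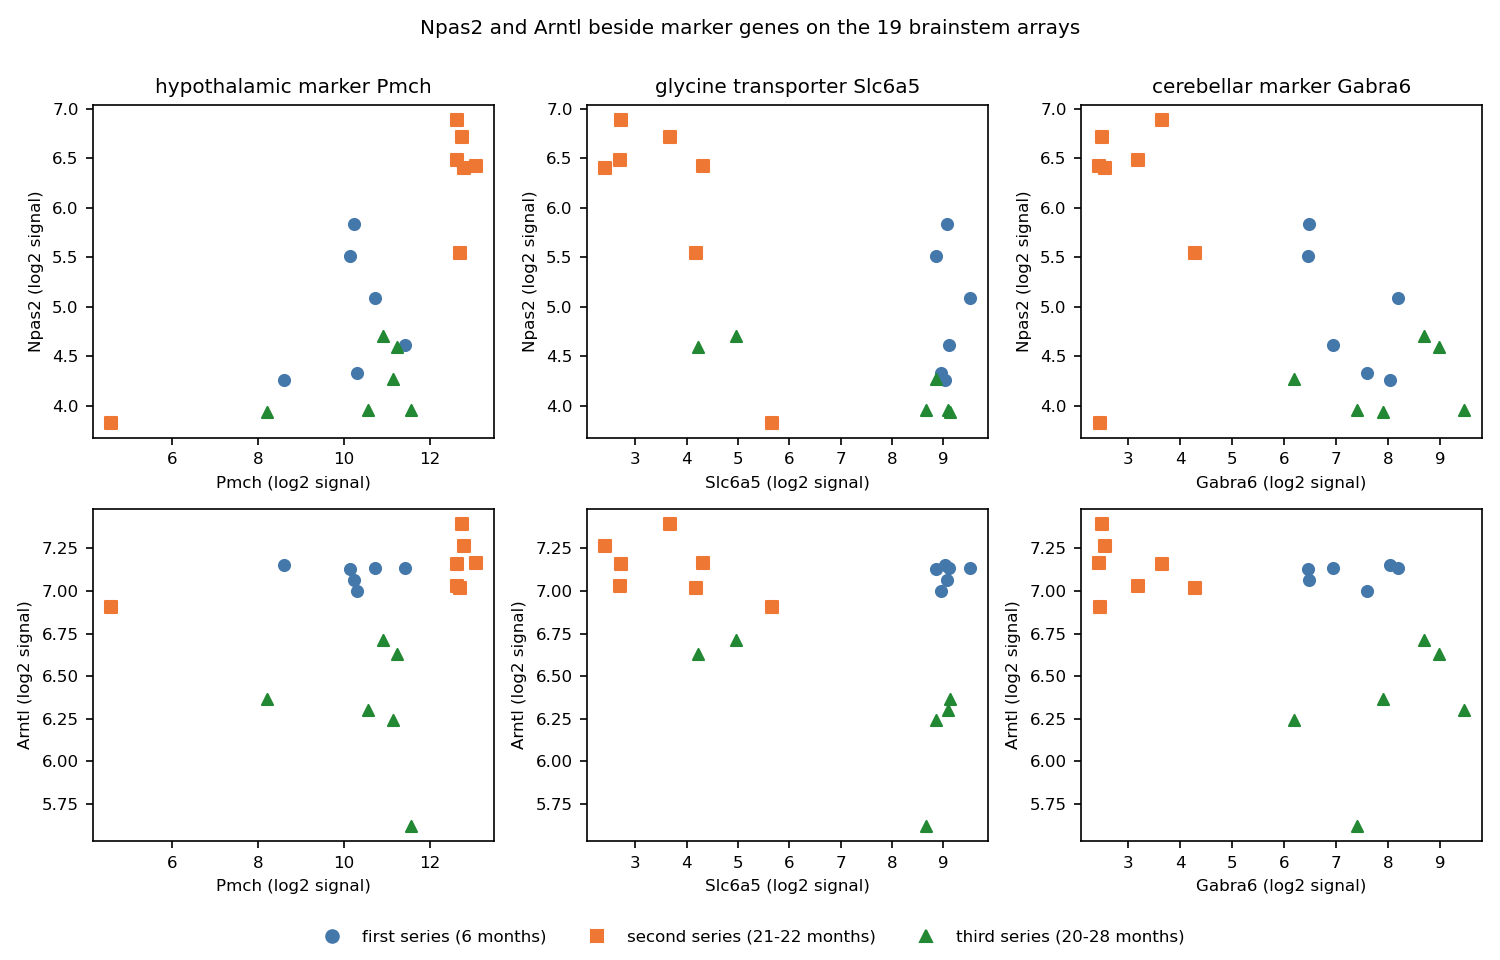
Npas2 (upper row) and Arntl (lower row) against Pmch, Slc6a5 and Gabra6 on the 19 brainstem arrays, all as log2 signal, with 1 point for each array and the array series marked. In the second series 6 arrays have high Npas2 together with Pmch above 12.6, and the WT array of that series with Npas2 at 3.83 has Pmch at 4.59.

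Despite these shifts, on every array the mean of the markers of its labelled region lay above that mean in all arrays of the other regions. This did not hold for each brainstem marker. Slc6a5 ran from 2.41 to 9.52 in brainstem and from 4.88 to 6.65 in cerebellum, and Th from 6.76 to 10.02 and from 4.23 to 8.15. The mean log2 signal of the striatal markers was 11.43 to 12.07 in striatum and at most 7.14 elsewhere, that of the cerebellar markers was 12.90 to 13.22 in cerebellum and at most 9.01 elsewhere, and that of the brainstem and midbrain markers was 4.48 to 7.87 in brainstem and at most 3.73 elsewhere. The 3 PrPmtA arrays of 28 months labelled female had a mean log2 signal of Y-linked genes of 4.79 to 5.63, against 2.52 to 2.88 in the other 30 arrays labelled female. Array medians were 3.46 to 3.63 in young and 3.38 to 3.47 in old arrays.

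Whether arrays of 1 group differed along the clock was then read from the correlation of Arntl with the other 9 genes, within each region, after the mean of each line, region and age was taken out. None of the 27 correlations passed a permutation test after Benjamini-Hochberg adjustment, and 18 of them were negative. The 27 also hold Clock, Npas2 and the Cry genes, which were not named above as opposite in phase to Arntl. For the Per genes, Nr1d1 and Dbp, r was negative except for Per2 in striatum and for Per3 and Dbp in brainstem. The second probe sets of 5 genes were set against Arntl in the same way, and 2 of these 15 correlations passed. These were Dbp in cerebellum (r = -0.86, rho = -0.78, adjusted permutation p = 0.0125, r = -0.76 without the 2 farthest arrays) and Clock in brainstem (r = 0.85, rho = 0.57, adjusted permutation p = 0.0125, r = 0.69 without them), neither of which was repeated within series. The array series form clusters in these values, so the correlations were repeated with the mean of each line and series taken out. Again none of 27 passed, and 7 were negative. For the Per genes, Nr1d1 and Dbp, r was then negative in cerebellum and positive in striatum and brainstem. In striatum 11 arrays were left, in cells too small for a single relation to pass after adjustment, so the test cannot decide there. The 2 young arrays of a line and region differ in their sex label, which was not taken out.

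In cerebellum, Dbp had r = -0.78 with Arntl (rho = -0.74, permutation p = 0.0212, adjusted p = 0.191, 21 arrays). Within series it was -0.79 (rho = -0.51, permutation p = 0.0477, adjusted p = 0.429, 20 arrays), but -0.39 without the 2 arrays farthest from the median of Arntl, so that it rested on them. Per3 had r = -0.72 (rho = -0.71, permutation p = 0.00315, adjusted p = 0.0721), -0.65 without these 2 arrays, and -0.63 within series, where it fell to -0.38 without the 2 farthest. In brainstem the relation of Dbp was not negative. It was 0.03 over all 19 arrays and 0.91 within series (rho = 0.69, permutation p = 0.0211, adjusted p = 0.324, 18 arrays), and 0.60 without the 2 farthest. Npas2 and Arntl, both activators, had r = 0.77 in brainstem (rho = 0.69, permutation p = 0.00534, adjusted p = 0.0721) and 0.51 within series. In striatum Dbp had r = -0.53 over 14 arrays and 0.09 within series, neither past the test.

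**Figure D5:**
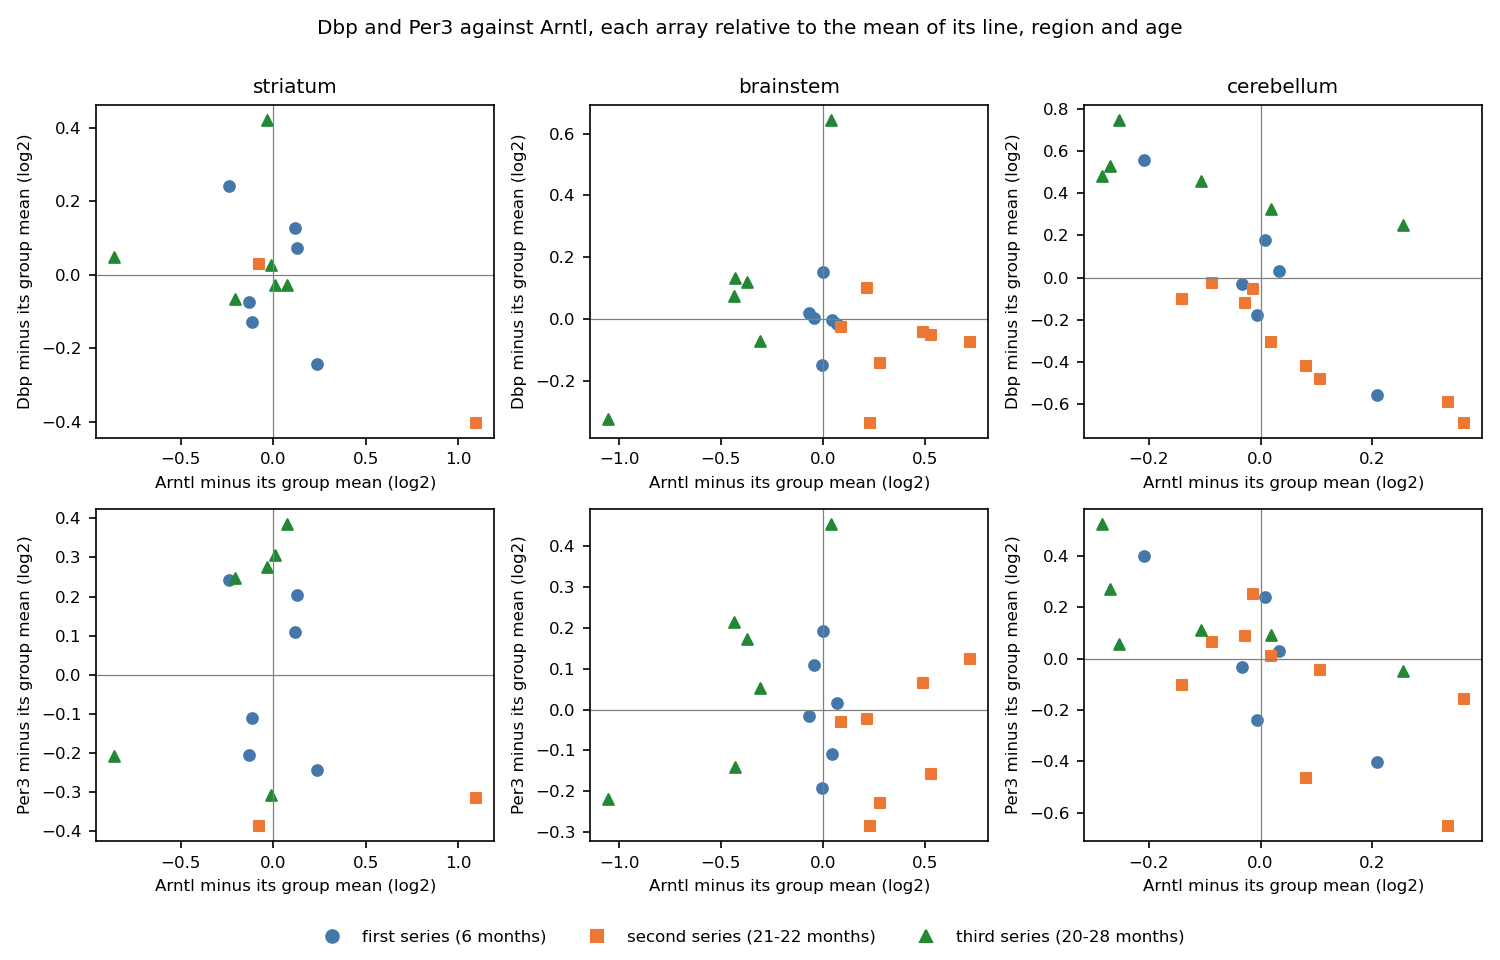
Dbp (upper row) and Per3 (lower row) against Arntl in each region, each array as its log2 difference from the mean of its line, region and age, with the 3 array series marked. In cerebellum both slope downwards (r = -0.78 and -0.72), in brainstem Dbp has no slope over all arrays (r = 0.03), and the series separate along the axes.

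Arrays of different regions that carry the same code would share an hour of dissection if they came from the same mice, which is not stated. They also share line, age in months and sex label. None of these was taken out, so the hour cannot be told apart from them. The values of a gene in one region were correlated with those in another over shared codes, within each series. None of the 60 correlations, each over 6 codes, passed a permutation test after adjustment, and 13 were negative. With 6 codes the lowest permutation p possible is 0.00139, which adjusted to 0.0833 here. A single relation could thus not pass alone, so the test cannot decide. Nr1d1 had this p in the third series, between brainstem and cerebellum (r = 0.90). Between striatum and brainstem of that series r was 0.97 for Nr1d1 and 0.92 for Dbp. Per3 was at -0.84 there between brainstem and cerebellum. In the second series, between brainstem and cerebellum, none of 10 passed, and Dbp came nearest over 7 codes (r = 0.90, rho = 0.89, exact permutation p = 0.00873, adjusted p = 0.0873).

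Other genes of the clock were measured by 16 of 18 listed symbols. Tef, which codes for a D-box binding factor related to DBP, was called higher in old than in young arrays in all 9 comparisons, by 0.31 to 0.76. In striatum the young arrays read 10.08 to 10.62 (median 10.40) and the old ones 10.63 to 10.86 (median 10.80), and in cerebellum 9.33 to 9.83 (median 9.65) and 9.84 to 10.55 (median 10.25). Young and old did not overlap in these regions. In brainstem they read 9.15 to 9.42 and 9.39 to 9.96. The old series overlapped for Tef in every region, at 10.63 to 10.79 in the second and 10.68 to 10.86 in the third in striatum. Its brightest probe set was higher in old arrays in all 9 comparisons under each setting that gave all 9, with at least 6 called, and in all 6 comparisons possible with old arrays of the second series only.

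Of these 16 genes, 1 to 4 were called higher and 0 or 1 lower with age in a comparison, beside 9.08% higher and 24.8% lower over all probe sets. Usp2, a deubiquitinase that cycles with the clock, was higher in WT and PrPmtB cerebellum by 0.61 and 0.78, and Hlf, of the same factor family as Tef, by 1.06 in PrPmtB cerebellum. Arntl2 was called lower in 6 of 9 comparisons, by at most 0.35 at a mean log2 signal of 2.72. Between the old series in brainstem 2 of the 16 were higher and 6 lower in the third, beside 6.91% higher and 5.59% lower over all probe sets and regions. In brainstem alone, 15% of all probe sets were called either way. Rora, an activator of Arntl, was 1.67 lower there (SE 0.19, limma adjusted p = 1.33e-07), and Nr1d2, the relative of Nr1d1, was 0.56 higher (adjusted p = 1.1e-05). Rora had a brainstem median of 11.27 in the second series and of 9.03 in the third, and the young median of 10.11 lay between them. For Rorb these medians were 7.63, 6.29 and 7.07. Markers of neighbouring tissue also differed between these brainstem arrays, and their part in the differences of Rora and Rorb was not tested. In cerebellum 3 were higher and 1 lower, among them Ciart, a repressor of the CLOCK and ARNTL pair, by 1.16.

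Lists of genes that respond to stress hormones, to neuronal activity and to temperature were set beside the clock genes. Over all probe sets and age comparisons 9.08% were called higher and 24.8% lower. Of 12 glucocorticoid-responsive genes, 2 to 5 were higher and 0 lower with age in each of the 9 comparisons. Mt1 and Sult1a1 were called higher in all 9 comparisons and Mt2 in 8, and Fkbp5, a direct target of the receptor, in 3. Of 12 immediate early genes, 6 were lower in old WT striatum, beside the 24.8% over all age tests, among them Npas4 by 4.47, Egr2 by 4.25 and Fos by 2.46. In PrPmtA striatum 1 was higher and 1 lower, in PrPmtB striatum 2 were lower and in WT cerebellum 3 were lower. Of 7 temperature genes, 0 or 1 were higher and 0 to 4 lower with age, beside the same 9.08% and 24.8%, among them the heat shock genes Hspa1b and Hspa8, lower in 6 of 9 comparisons each. How far these responses bear on the clock genes was not tested.

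The genes whose values moved most like those of Dbp over the 54 arrays, after the mean of each group was taken out, were Utp15 (Pearson r = 0.78), Tmem204 (0.77), Fnip1 (0.76), Brd7 (0.74) and Usp2 (0.74), of 20171 probe sets in the brighter part of the arrays. Within line and series, over 49 arrays, these were 0.57, 0.61, 0.41, 0.37 and 0.66. The lowest were Mmp24 (-0.71), Iffo2 (-0.70), Sptb (-0.69), Atp2a3 (-0.69) and Tspan9 (-0.68), and within line and series -0.44, -0.25, -0.21, -0.56 and -0.56. For Arntl the highest were Cap2 (0.83), Zdhhc14 (0.81), A330008L17Rik (0.79), Trim9 (0.79) and Frrs1l (0.78), and the lowest Tm2d2 (-0.82), Ephx1 (-0.80), Dnpep (-0.80), Cryzl2 (-0.79) and Mrpl38 (-0.77). Within line and series the former were 0.66, 0.57, 0.38, 0.70 and 0.68, and the latter -0.59, -0.60, -0.50, -0.56 and -0.47. Usp2 was the only one of these 20 genes on the list of other clock genes.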

How the data were processed

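RNA was measured on 54 Affymetrix mouse genome arrays. The authors deposited log2 signals for 45101 probe sets, normalized together; the methods name RMA and the submitters' processing notes name GCRMA, so which was used is not settled. Leaving out 64 control rows, 45037 entered the fit. Groups came from the labels, and array series from the codes in the titles. Replicates are separate arrays, and the labels do not say that each is a separate animal, so p-values measure the spread between arrays. In R 4.3.3, limma 3.58.1 fitted 18 group means to all arrays with moderated standard errors, and calls were made with decideTests, method nestedF, at a Benjamini-Hochberg false discovery rate of 5%. A call and the adjusted p of its single comparison can thus fall on different sides of 0.05. The comparison of array series added a term for the third series in each region. Correlations were tested in Python 3.11.15 with 100000 permutations, within groups or series. The fit was tested on simulated data. Named were the 10 members, listed other clock genes, examples of the other lists, and the 5 highest and 5 lowest correlates of Dbp and Arntl. Overlap of arrays between ages, series and regions was described for named genes and not counted over all probe sets. The members and lists were chosen with earlier results of these data known. No depth exists for arrays, and their number limits the precision. Some listed genes and the transgene are not reported here. Alternatives were the brighter probe sets, separate fits per region, separate decideTests, a term for the third series, third-series old arrays only, sex, quantile normalization, a block for shared codes, leaving out arrays, and the second brightest probe set.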

Additional observations from a re-analysis of the deposited data

How the results depend on the processing

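Of the 20 age calls, 17 to 22 were counted with 1 array left out at a time, of the 25 region calls 23 to 27, and of the 11 calls between array series 8 to 13. The counts of 0 for line, line within region and age, and line by age stayed at 0 when each array was left out in turn and in the other limma settings run. Arrays of a shared code had a consensus correlation of 0.136. With these codes as a random replicate block, 19 age, 26 region and 11 series calls were made, and no line call, and the block lost 1 member call, Clock in WT striatum, and 3 age calls of Csnk1e. Replicate numbers were given in accession order and pair nothing. Over the other settings the age count was 14 with decideTests by separate comparisons and 25 without the 28-month PrPmtA arrays. Series calls numbered 7 with a separate fit for each region and 7 with separate decideTests. With old arrays of the second series only, a setting chosen after seeing the data, age calls in brainstem and cerebellum rose from 13 to 25 of 60. The second brightest probe set gave 8 rather than 13 of 18 region calls and turned the direction of Clock in WT striatum (0.011), PrPmtB striatum (0.20) and PrPmtB brainstem (0.11) and of Per2 between cerebellum and striatum (0.030). Between series in striatum, with 1 array left out at a time, Arntl ran from -1.46 to 0.15 and Bhlhe41 from -0.47 to 0.062, both turned without WT striatum old replicate 1. With a term for the third series Csnk1e in PrPmtA striatum turned to -0.12. With quantile normalization 1 of the 27 correlations with Arntl passed. Adjusted over the 15 of genes with a second probe set, 2 passed with either probe set. The causes were not tested. No averaged line effect comes from separate fits per region.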

Other observations

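The log2 signals of each member were also searched for single arrays far from the others of their group, in the 6 groups of 4 to 6 arrays. None of the 60 sets of values held such an array, where chance gives about 1 in 20. These groups pool old arrays of both series, so an array that stands apart only within its series can be missed. Npas2 at 3.83 in WT brainstem, where the median of its series was 6.43, was not flagged.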
